A study of Mus musculus with 10 samples.

Results

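Alox5, Alox5ap, Ltc4s and Hpgds, which act in the synthesis of leukotrienes and prostaglandin D2, were examined for active and enhancer-type chromatin in mouse mast cells. The members were the ChIP-seq peaks of 5 lists that overlapped 4 fixed windows of the mm9 genome: chr6:116320000-116450000 for Alox5, chr5:150030000-150150000 for Alox5ap, chr11:50010000-50090000 for Ltc4s and chr6:65020000-65140000 for Hpgds. The windows span 450 kb in all and held 305 of the 234627 peaks in the lists, or 0.130%. The Alox5 window held 115 of them, the Alox5ap window 84, the Ltc4s window 90 and the Hpgds window 16.

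The study mapped 2 histone marks in bone marrow-derived mast cells, which are mast cells grown from progenitors of the marrow. Marrow came from tibias and femurs of C57BL/6 mice 6 to 8 weeks old and was kept for 4 weeks in medium with 20 ng/ml interleukin-3, after which more than 99% of the cells carried the IgE receptor and Kit by flow cytometry. The 10 samples were 3 immunoprecipitates of H3K27ac (acetylated lysine 27 of histone H3), 2 of H3K4me1 (monomethylated lysine 4 of histone H3) and their 5 matched inputs, all from cells of 1 kind with no treatment given in the labels. Peaks were called for each immunoprecipitate against its own input, so the comparisons were between marks, between replicate lists and between windows.

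Mast cells make lipid mediators from arachidonic acid when they are activated. 5-Lipoxygenase, the product of Alox5, turns arachidonic acid into leukotriene A4 with the help of the membrane protein encoded by Alox5ap (FLAP), and leukotriene C4 synthase, encoded by Ltc4s, joins leukotriene A4 to glutathione to form leukotriene C4, the parent of the cysteinyl leukotrienes. On the cyclooxygenase branch, the hematopoietic prostaglandin D synthase encoded by Hpgds makes prostaglandin D2, the main prostanoid of mast cells. H3K27ac is found at active promoters and enhancers, and H3K4me1 lies at both active and inactive enhancers and on the flanks of active promoters.

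The promoters of 3 of the 4 genes are shown because the windows were drawn around these genes, from 250 bases before to 50 bases after the annotated start of transcription (RefSeq, GRCm38.p6, all on the minus strand). They lie at chr6:116461129-116461428 for Alox5, chr11:50238483-50238782 for Ltc4s and chr6:65144681-65144980 for Hpgds in that build. Capitals mark matches, on either strand, to the letters of short motifs. These were GATA as AGATAA or AGATAG and as TGATAA or TGATAG, E-box as CACGTG or CATGTG, RUNX as TGTGGT, ETS as AGGAAG and the TATA box as TATAAA.
Alox5: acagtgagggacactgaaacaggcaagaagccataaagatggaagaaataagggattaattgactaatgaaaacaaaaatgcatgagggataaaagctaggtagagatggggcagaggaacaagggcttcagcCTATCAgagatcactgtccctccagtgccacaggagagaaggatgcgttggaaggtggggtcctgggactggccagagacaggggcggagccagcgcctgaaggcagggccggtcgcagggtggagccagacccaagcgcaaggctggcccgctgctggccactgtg
Ltc4s: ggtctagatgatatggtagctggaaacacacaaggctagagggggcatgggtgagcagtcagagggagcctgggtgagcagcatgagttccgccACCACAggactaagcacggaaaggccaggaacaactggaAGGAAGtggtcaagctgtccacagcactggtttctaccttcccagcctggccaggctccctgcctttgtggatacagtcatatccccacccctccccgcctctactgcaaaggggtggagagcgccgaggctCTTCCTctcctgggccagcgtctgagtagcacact
Hpgds: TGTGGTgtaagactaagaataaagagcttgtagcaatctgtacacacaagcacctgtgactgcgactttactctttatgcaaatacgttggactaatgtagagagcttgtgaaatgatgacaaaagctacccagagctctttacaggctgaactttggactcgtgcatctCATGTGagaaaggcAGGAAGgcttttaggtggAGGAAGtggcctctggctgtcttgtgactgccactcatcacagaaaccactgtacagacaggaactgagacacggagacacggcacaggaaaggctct
The Alox5 promoter held 1 match, a GATA motif on the opposite strand whose first printed base is at position -117 from the start. The Ltc4s promoter held 1 RUNX match and 2 ETS matches, one of them after the start of transcription. The Hpgds promoter held 1 RUNX match, 1 E-box match and 2 ETS matches. No match overlapped another. Such letters are common: of 32851 promoters in the table, 29.8% held a GATA match, 20.4% an E-box match, 16.8% a RUNX match, 35.4% an ETS match and 13.6% a TATA match. The GC content was 55.7% for Alox5, 58.7% for Ltc4s and 46.7% for Hpgds, with a median of 52.7% over all promoters. The peaks are placed on mm9, an older build, so these promoters could not be located relative to a peak and the matches say nothing about where a factor was bound.

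Other genes may reach into the windows, which was not determined on mm9. In RefSeq (GRCm38.p6) the nearest protein-coding neighbours are Marchf8 and Olfr211 for Alox5, Uspl1 and Medag for Alox5ap, Mgat4b and Maml1 for Ltc4s, and Smarcad1 and Qrfprl for Hpgds. No peak was assigned to a gene or called a promoter or an enhancer.

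The lists held 30599 to 39837 peaks for H3K27ac and 59430 to 70726 for H3K4me1, from 10457047 to 19513552 immunoprecipitate tags each. Median fold enrichment was 6.80 to 7.93 in the H3K27ac lists and 6.13 to 6.50 in the H3K4me1 lists. The fold is the authors' value for a peak, its tag pileup over the local background from the input, with a constant added to both. It was ranked only within its own list (rank 1 is the highest). H3K27ac peaks were called with a later version of the caller than H3K4me1 peaks, so mark and caller version cannot be told apart. Whether replicates came from different cultures or mice is not stated in the labels, so the errors and p-values describe variation among these samples alone, and it may be technical.

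**Figure D1:**
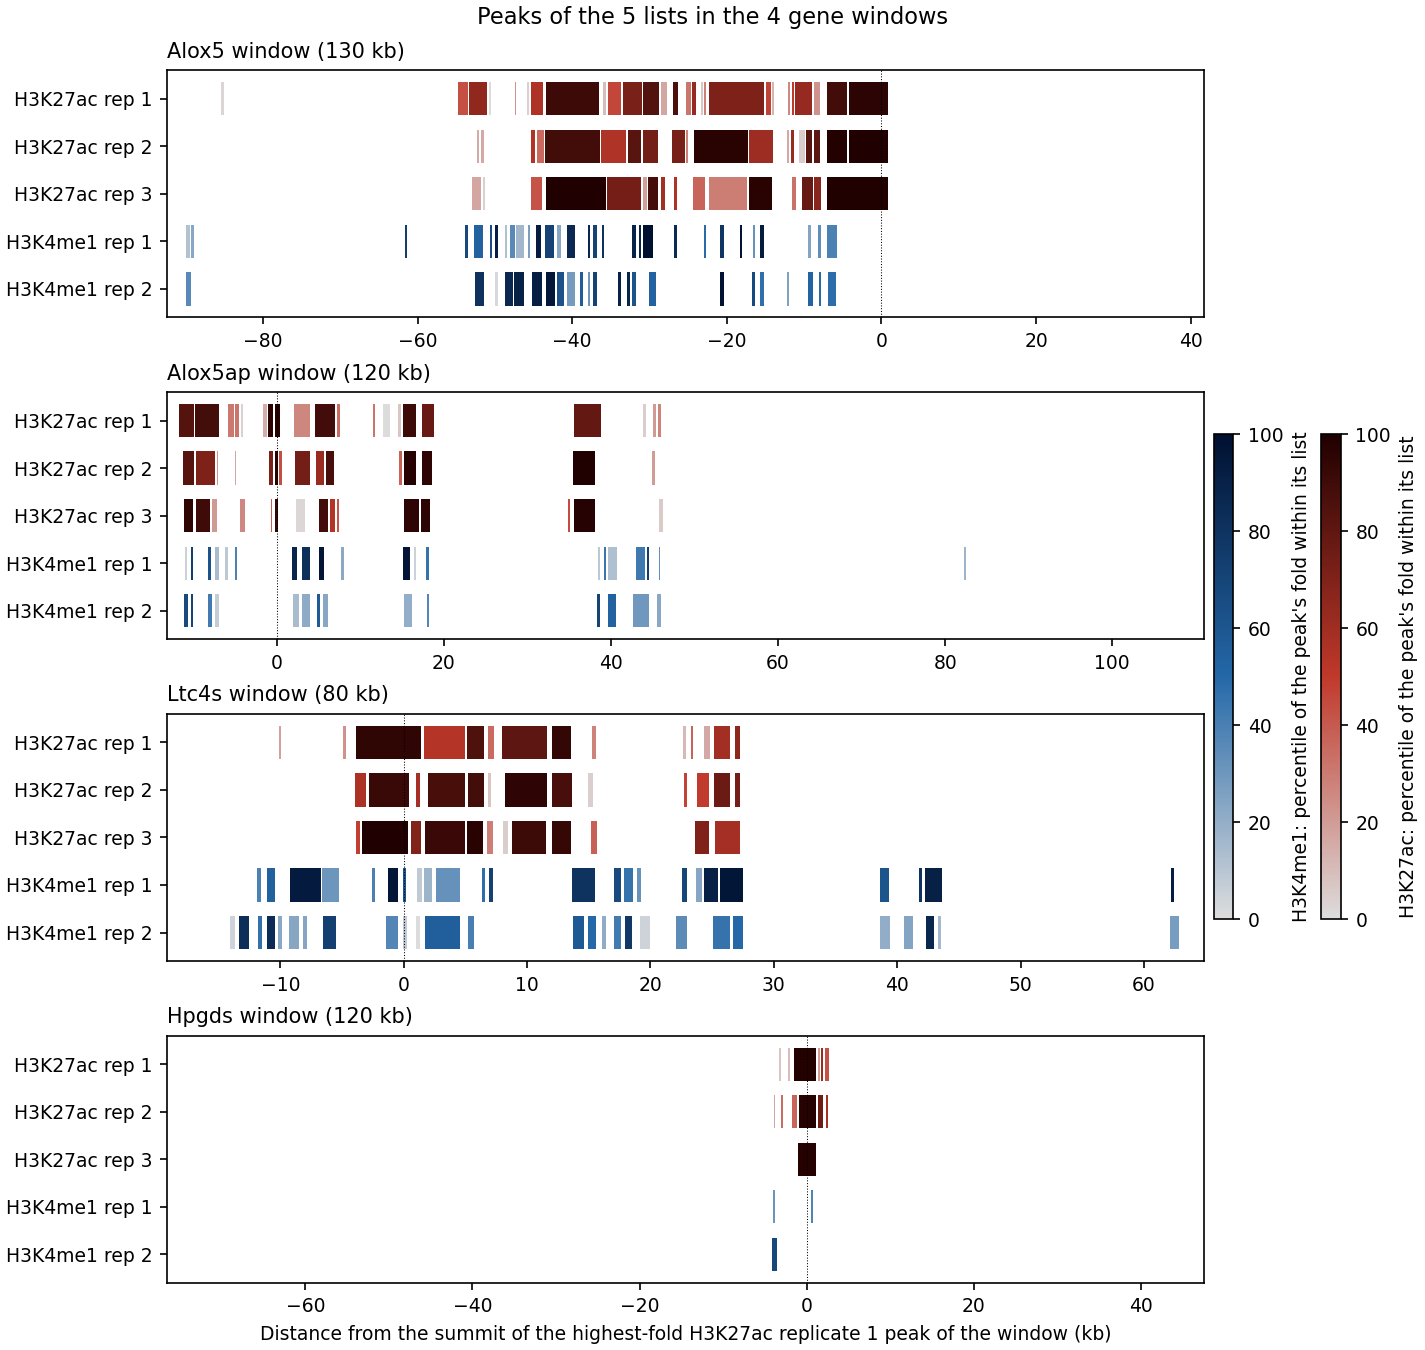
Peaks of each list along the 4 windows, 1 track per list, with distance in kb from the summit of the highest-fold H3K27ac replicate 1 peak of the window on the horizontal axis and the percentile of each peak's fold within its own list as colour. Most Alox5 peaks of both marks lie in the 54.1 kb H3K27ac cluster, and the Hpgds window holds 16 peaks in all, clustered within a few kb.

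The 4 windows differed widely in how much of them was covered by peaks, from 32.3% of the Alox5 window in H3K27ac replicate 1 to 0.449% of the Hpgds window in H3K4me1 replicate 1. In the Alox5 window H3K27ac peaks covered 32.3%, 29.6% and 29.0% in replicates 1 to 3, and H3K4me1 peaks covered 12.1% and 12.3% in replicates 1 and 2. The H3K27ac lists lay far above the H3K4me1 lists, with means of 30.3% ± 1.76 (SD, n = 3) and 12.2% ± 0.146 (SD, n = 2), a difference of -18.1 percentage points for H3K4me1 minus H3K27ac. In the Alox5ap window the H3K27ac lists covered 17.0%, 12.2% and 11.3% and the H3K4me1 lists 7.79% and 7.66%, and the means of 13.5% ± 3.08 and 7.72% ± 0.0943 differed by -5.76 points. Here too every H3K27ac list exceeded every H3K4me1 list.

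The Ltc4s window was the one with slightly more H3K4me1. Its H3K27ac peaks covered 23.8%, 21.6% and 23.0% and its H3K4me1 peaks 24.6% and 24.5%. The means of 22.8% ± 1.17 and 24.6% ± 0.0513 differed by +1.74 points, and this order turned to -1.35 points with only peaks of a minus log10 q of at least 10, to -4.52 with lists of equal size and to -3.97 with the window shortened by 10 kb at each side. In the Hpgds window H3K27ac covered 3.39%, 3.33% and 1.75% and H3K4me1 0.449% and 0.507%, with means of 2.82% ± 0.931 and 0.478% ± 0.0412 and a difference of -2.34 points.

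Lists of the 2 marks did not overlap in any of the 4 windows. Among tiles of the genome that held peaks of both marks, all H3K27ac lists lay above all H3K4me1 lists in 25.1% of tiles of 130 kb (the length of the Alox5 window), in 25.8% of tiles of 120 kb (Alox5ap and Hpgds) and in 26.8% of tiles of 80 kb (Ltc4s). The reverse order, that of the Ltc4s window, was seen in 42.9%, 42.4% and 40.2% of these tiles. Permuting the mark labels over the 5 lists (exact permutation test, two-sided) gave p = 0.1 for Alox5 and for Alox5ap and p = 0.2 for Ltc4s and for Hpgds, where 0.1 is the smallest p that 3 lists against 2 allow. Adjusted over the 4 windows by Benjamini-Hochberg, each p was 0.2, so no difference between marks passed 0.05, and this number of lists could not have reached it.

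**Figure D2:**
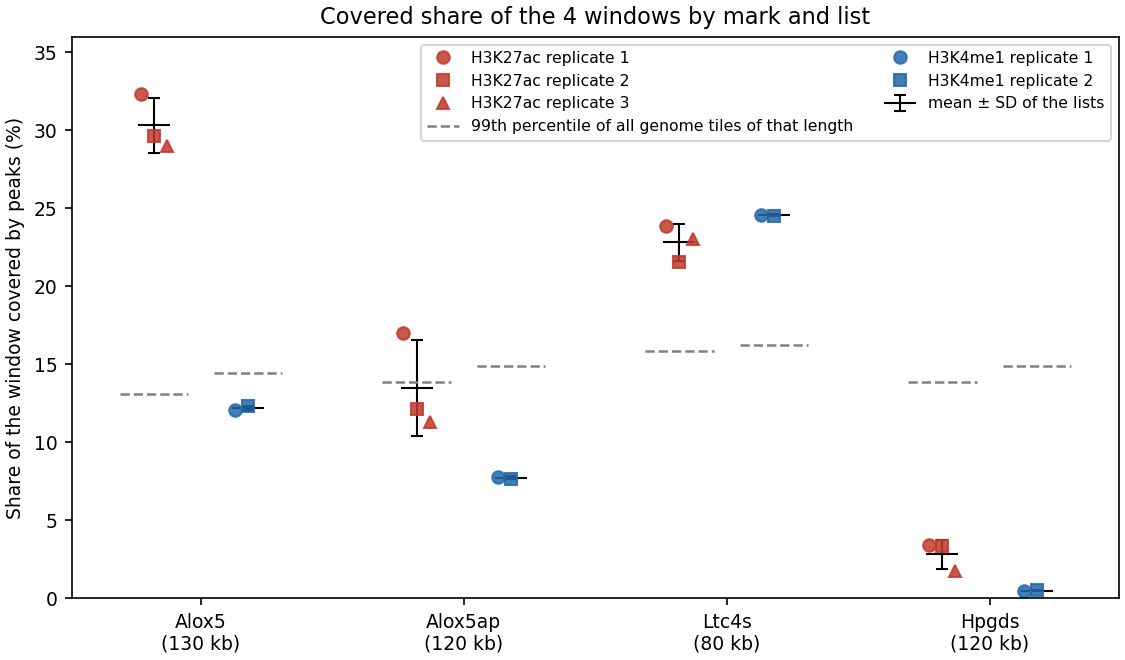
Percent of each window covered by peaks, with 1 point per list, a black line at the mean of each mark and the SD as error bar (3 H3K27ac lists, 2 H3K4me1 lists), and a dashed line at the 99th percentile of genome tiles of the same length. The points of the marks are far apart for Alox5, at 29.0 to 32.3% against 12.1 to 12.3%, and close together for Ltc4s, at 21.6 to 23.8% against 24.5 to 24.6%.

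Set beside the rest of the genome, the Alox5 and Ltc4s windows were among the most densely covered. Of 19715 tiles of 130 kb, 14 had a mean H3K27ac cover as high as that of the Alox5 window or higher, while 327 reached its H3K4me1 cover. Of 32043 tiles of 80 kb, 129 reached the H3K27ac cover of the Ltc4s window and 78 its H3K4me1 cover. The Alox5ap window was reached by 236 of 21358 tiles of 120 kb in H3K27ac and by 921 in H3K4me1. For Hpgds these numbers were 2243 and 7501 of the same 21358 tiles. The median tile of each length had no cover in either mark. The windows were chosen around genes, and the tiles were not, so these counts are a description.

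The Alox5 window, around the gene of the first enzyme of leukotriene synthesis, had 27, 19 and 16 H3K27ac peaks and 30 and 23 H3K4me1 peaks. Joining the peaks of a mark's lists gave 17 H3K27ac regions, of which 9 had a peak in every list of the mark (called consensus regions here), and 31 H3K4me1 regions, of which 18 did. Over the genome 45.5% of joined H3K27ac regions and 51.2% of joined H3K4me1 regions were consensus regions. Of the 9 H3K27ac consensus regions of Alox5, 8 overlapped an H3K4me1 consensus region, beside 40.5% over the genome. Of its 18 H3K4me1 consensus regions, 15 overlapped one of H3K27ac, beside 24.4% over the genome. Overlap counts from 1 bp, and long regions in a densely covered window have more chances of it, so such shares are descriptions.

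Within Alox5 the longest H3K27ac consensus regions, of 12437 and 10540 bp, each overlapped several short H3K4me1 consensus regions. The other H3K27ac consensus regions of the window overlapped 1 each or none. The 9 H3K27ac consensus regions lay in 1 cluster from chr6:116357059-116411144 with no gap over 12.5 kb, which spans 54.1 kb and had 42.1 kb covered. It ranked 11 by covered length among 9688 clusters stitched in that way over the genome. Individual peaks were long as well: 3, 3 and 2 H3K27ac peaks of the Alox5 window were at least 5000 bp long, beside 0.708%, 0.529% and 0.608% of all peaks in those lists. None of the H3K4me1 peaks of the 4 windows was that long, beside 0.0226% and 0.0219% of the peaks in those lists. In Ltc4s 1 H3K27ac peak of replicate 1 was, and none was in the other lists or windows. The longest H3K27ac peaks of Alox5 measured 7146, 7040 and 7880 bp and ranked 74, 48 and 36 by length. Outside the cluster the upper 38.9 kb of the window, chr6:116411145-116450000, held no peak in any list.

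The overlaps of consensus regions of the marks formed 8 joined stretches in Alox5 (2-mark regions), which took up 40598 bp or 31.2% of the window. The longest, chr6:116366881-116379324, measured 12444 bp and ranked 22 by length among 7587 in the genome, whose median was 1828 bp. It joined 1 H3K27ac region with 6 H3K4me1 regions, and its highest H3K27ac folds were 17.5, 11.9 and 26.2, at ranks 3629, 3629 and 109. Next in length came chr6:116385885-116396424 with 10540 bp (rank 55), which held 3 H3K4me1 regions and reached H3K27ac folds of 10.8, 16.2 and 18.8. The other 6 stretches measured 944 to 7911 bp. The number of stretches was 2 with peaks joined across 1000 bp and 5 with a minus log10 q of at least 10.

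The H3K27ac region of Alox5 with the highest mean percentile by fold lay at the upper end of the cluster. The region chr6:116403234-116411144 had folds of 22.4, 22.6 and 25.3, at ranks 1506, 56 and 143 of their lists, from 135, 75 and 72 tags at the summit. Its summits fell within 157 bp of each other, at positions 116410339, 116410360 and 116410203. H3K4me1 was called in this region at its lower end, at chr6:116403344-116404523, with modest folds of 5.87 and 6.03. In both H3K4me1 lists the nearest peak below the H3K27ac summits of replicates 1 and 2 ended 5.82 to 5.85 kb away, and the nearest above them began 147 to 156 kb away. These summits thus stood apart from called H3K4me1, just below the peak-free upper end of the window. In replicate 3 the highest H3K27ac fold of the window, 26.2, lay in another region. Its summit, at 116372426, was inside an H3K4me1 peak of both lists.

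H3K4me1 within Alox5 was led by chr6:116365194-116366377 with folds of 10.9 and 9.54 and by chr6:116389424-116390015 with folds of 8.52 and 11.6. Both overlap H3K27ac consensus regions. The highest H3K4me1 fold of all the windows, 16.7 at rank 136 of replicate 1, lay in chr6:116379479-116381236, where replicate 2 gave 6.30 at rank 27461. The tags at these summits were 67 (95% exact Poisson interval 51.9 to 85.1) and 37 (26.1 to 51.0). They came from lists with 19513552 and 14685161 immunoprecipitate tags. Pileup divided by fold, an approximation of the local background, was 2.98 in replicate 1 and 4.84 in replicate 2. The replicates thus disagreed on the rank of a region that both called, and the part of depth or background in this was not tested.

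**Figure D3:**
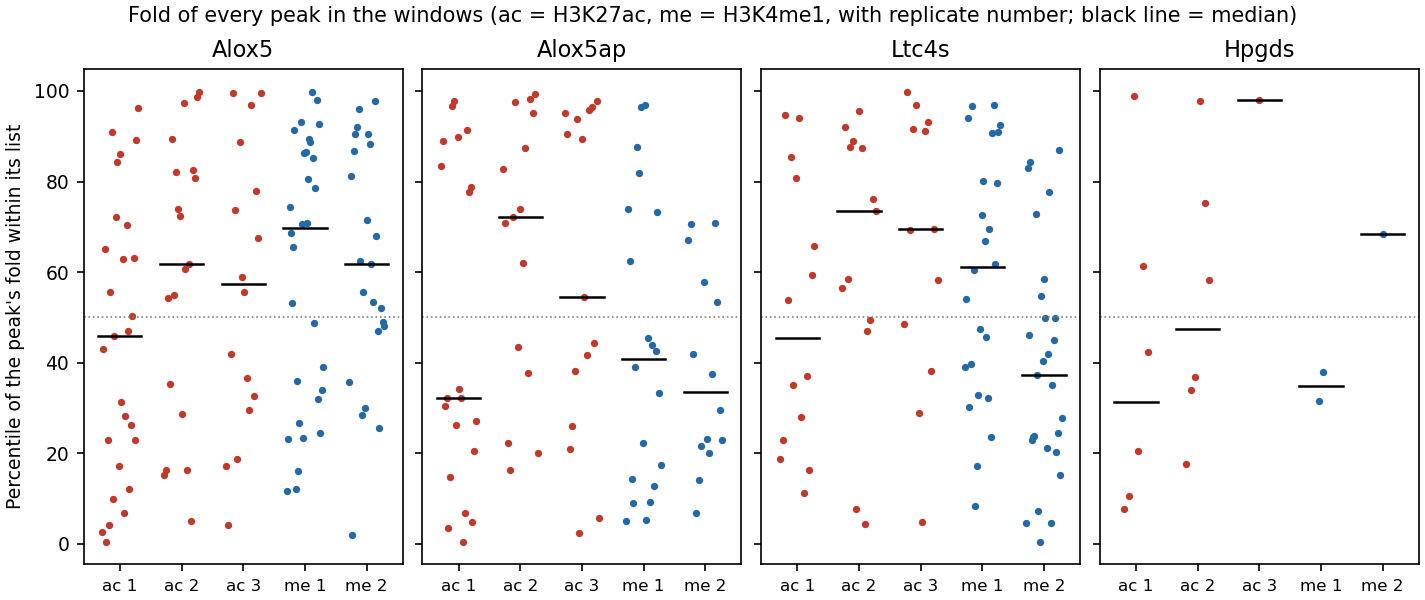
Percentile of fold within its own list for every peak of the windows, by window and list, with 1 point per peak, a black line at the median of each list's peaks and a dotted line at 50 (percentile on the vertical axis). H3K27ac has peaks near the top of each list in all 4 windows, while the 3 H3K4me1 peaks of Hpgds lie at 31.5, 38.0 and 68.3.

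Alox5ap, the gene of the 5-lipoxygenase activating protein, had 20, 15 and 15 H3K27ac peaks and 20 and 14 H3K4me1 peaks in its window. Of 21 joined H3K27ac regions 9 were in every list, beside 45.5% over the genome. Of 19 joined H3K4me1 regions 13 were, beside 51.2%. Of the 9, 7 overlapped an H3K4me1 consensus region, beside 40.5% over the genome, and 10 of the 13 overlapped one of H3K27ac, beside 24.4%. Together they formed 7 2-mark regions of 1566 to 3314 bp, 16045 bp in all. That length includes a part of the lowest region that lies below the edge of the window. The number of 2-mark regions was 3 with lists of equal size and 4 with a minus log10 q of at least 10. At the lower end 8 of the 9 H3K27ac consensus regions formed a cluster, chr5:150029339-150059940, which spans 30.6 kb with 13.8 kb covered (rank 263 by cover) and reaches past the lower edge of the window. From 150087286 to 150123268 no list had a peak, a stretch of 35983 bp.

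The leading H3K27ac regions of Alox5ap differed in whether H3K4me1 accompanied them. The region chr5:150040892-150041699 had folds of 25.3, 16.4 and 16.0 and no H3K4me1 peak in either list. Its neighbour chr5:150040072-150040687, with folds of 23.4, 8.68 and 6.73, had none as well, as did 46.9% of all H3K27ac consensus regions. By contrast, chr5:150056206-150058047, with closely similar folds of 17.7, 17.2 and 17.4 and summits within 7 bp, overlapped an H3K4me1 region called at 12.4 and 4.73. The longest H3K27ac region, chr5:150076567-150079880 with 3314 bp, stood apart from the cluster and had folds of 12.7, 19.5 and 20.1 (ranks 8416, 244 and 674), the highest of the window in replicates 2 and 3. H3K4me1 overlapped only its upper end, at folds of 4.13 and 7.25.

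H3K4me1 of Alox5ap was strongest in replicate 1 at 12.4 (rank 2160), but the highest fold in replicate 2 was 7.25 (rank 17106). By mean percentile the leading H3K4me1 regions were chr5:150045888-150047208 with folds of 12.1 and 6.54 and chr5:150030765-150031091 with 8.08 and 7.23, both within H3K27ac regions. Above the separate H3K27ac region, 3 H3K4me1 consensus regions from 150080695 to 150087011 overlapped no H3K27ac consensus region, and 1 of these had no H3K27ac peak in any list.

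The Ltc4s window, around the gene of leukotriene C4 synthase, is the shortest and had 14, 13 and 12 H3K27ac peaks and 24 and 27 H3K4me1 peaks. It held 9 H3K27ac consensus regions of 13 joined ones and 17 H3K4me1 consensus regions of 28, beside 45.5% and 51.2% over the genome. Of the 9, 5 overlapped H3K4me1 consensus regions, beside 40.5% over the genome. Of the 17, 6 overlapped H3K27ac consensus regions, beside 24.4%. These shares rest on few regions in a densely covered window, and the gap to the genome was not tested. Of the 17, 10 had no H3K27ac peak in any list, a share close to the 61.7% of all H3K4me1 consensus regions. In Alox5 2 of 18 and in Alox5ap 1 of 13 had none. Bases called in every list of both marks made up 70.4% of the bases with H3K4me1 in every list for Alox5, 37.4% for Alox5ap, 35.5% for Ltc4s and none for Hpgds. As a share of the bases with H3K27ac in every list the order was another, with 32.5% for Ltc4s, 24.4% for Alox5 and 22.9% for Alox5ap. No share over the genome was computed for these bases. Mean H3K27ac cover was 30.3% for Alox5, 13.5% for Alox5ap, 22.8% for Ltc4s and 2.82% for Hpgds. A densely covered window has more chances of shared bases, so these shares are descriptions.

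Along the Ltc4s window stretches with both marks lay between stretches with one of them. At the lower end 4 H3K4me1 consensus regions from 50015229 to 50021886 overlapped no H3K27ac consensus region. The 9 H3K27ac consensus regions followed in a cluster at chr11:50023235-50054431, which spans 31.2 kb with 19.98 kb covered and ranked 105 of 9688. Its first region, chr11:50023235-50028514, was the longest at 5280 bp and had folds of 20.6, 12.7 and 26.6 (ranks 2110, 2731 and 99), and H3K4me1 peaks inside it reached 12.2 and 5.57. In the middle of the cluster, chr11:50035137-50038761 (folds 13.2, 14.6 and 14.5) and chr11:50039140-50040762 (folds 19.8, 11.3 and 15.6) had H3K27ac in every list and no H3K4me1 peak in either.

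The leading H3K4me1 regions of Ltc4s lay further up the window. The region chr11:50069445-50070760 had H3K4me1 folds of 10.3 and 8.72 and no H3K27ac peak, and it was the highest of the window in replicate 2 (rank 7753). The region chr11:50051480-50054695 had folds of 12.3 (rank 2219 of replicate 1) and 6.13 and overlapped 2 H3K27ac regions, forming a 2-mark region of 3960 bp with H3K27ac folds of 9.96, 9.20 and 9.46. In all, 4 2-mark regions of 2024 to 5367 bp took up 14681 bp, or 18.4% of the window. Of these, the longest ranked 483 of 7587. Their number was 2 with lists of equal size and with a minus log10 q of at least 10.

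Hpgds, the gene of the prostaglandin D2 synthase of blood cells, had 1 strong H3K27ac site in its window. Its window had 6, 6 and 1 H3K27ac peaks and 2 and 1 H3K4me1 peaks. Of 7 joined H3K27ac regions 1 was in every list, beside 45.5% over the genome. This region, chr6:65092683-65095629, is 2947 bp long and had folds of 29.3, 16.5 and 20.6 at ranks 417, 765 and 595, from 99, 40 and 51 tags (95% exact Poisson intervals 80.5 to 121, 28.6 to 54.5 and 38.0 to 67.1). The fold of 29.3 is the highest of any window in replicate 1. The other H3K27ac peaks of Hpgds lay within a few kb of this region, and none had a fold above 9.30.

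H3K4me1 at Hpgds was called at 2 sites. The H3K4me1 consensus region, chr6:65090306-65090914, had folds of 5.49 and 7.12 (ranks 48298 and 18726), below the median of replicate 1 and above that of replicate 2. It overlapped no H3K27ac consensus region, but an H3K27ac peak of replicate 2, chr6:65090548-65090757, lay inside it with a fold of 5.04. Tags at the H3K4me1 summits of Hpgds were 43 and 38 in replicate 1 and 42 in replicate 2, above the list medians of 33 and 27. Inside the H3K27ac region H3K4me1 replicate 1 had a peak of 225 bp, chr6:65095025-65095249, with a fold of 5.84 (rank 43493). The highest H3K27ac summits of replicates 2 and 3, at 65095224 and 65095133, lay inside this peak, and that of replicate 1, at 65094502, did not. H3K4me1 replicate 2 had no peak inside the region. Hpgds therefore had no 2-mark region with both H3K4me1 lists required, and 1 without H3K4me1 replicate 2 or with peaks joined across 1000 bp. Below these sites the window held no peak in any list for 70.3 kb. A missing peak says only that the limit of the caller was not passed at this depth.

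**Figure D4:**
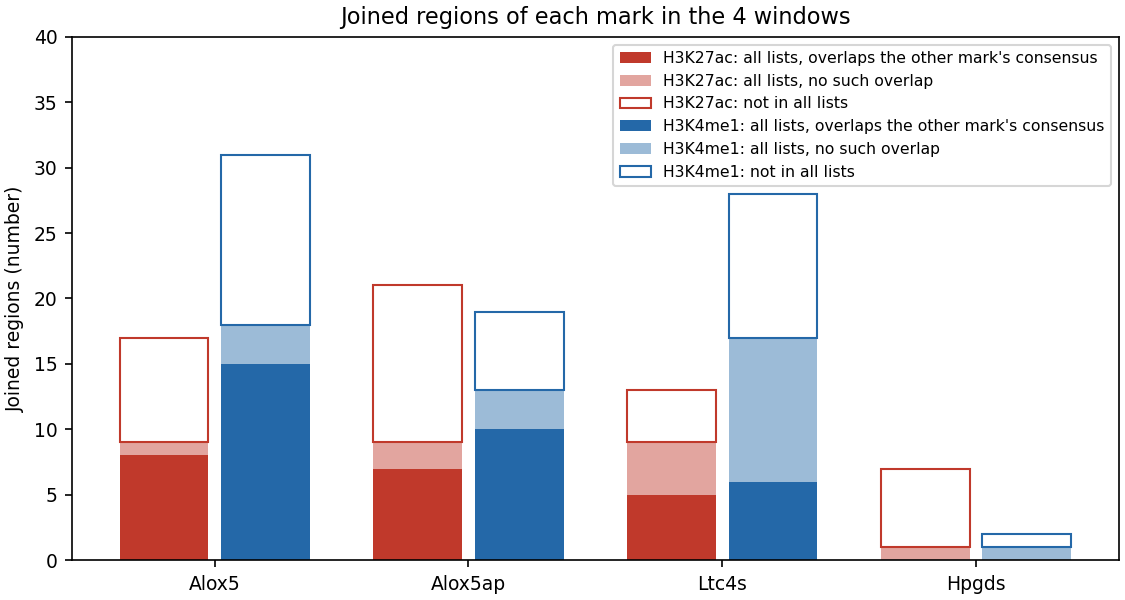
Joined regions of each window by mark, as stacked bars of the number of joined regions: in every list and overlapping a consensus region of the other mark, in every list without such overlap, and not in every list. Overlapping consensus regions are 8 of 9 for H3K27ac and 15 of 18 for H3K4me1 in Alox5, 5 of 9 and 6 of 17 in Ltc4s, and 0 of 1 for each mark in Hpgds.

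By fold rank within each list, the highest H3K27ac peak stood near the top in all 4 windows, and the highest H3K4me1 peak varied. The highest H3K27ac fold of each window had a mean percentile within its lists of 98.6 ± 2.03 for Alox5, 98.3 ± 0.881 for Alox5ap, 96.7 ± 2.65 for Ltc4s and 98.3 ± 0.625 for Hpgds (SD, n = 3). These means differ by less than the SD among the Ltc4s lists. For H3K4me1 the mean percentile was 98.8 ± 1.36 for Alox5, 91.9 ± 6.99 for Ltc4s, 83.9 ± 18.5 for Alox5ap and 53.2 ± 21.4 for Hpgds (SD, n = 2). The lists of Ltc4s and Alox5ap overlapped, and both Hpgds lists, at 38.0 and 68.3, lay below all lists of the other windows. Ranked by pileup in place of fold, the means were 97.1, 96.8, 91.9 and 82.9 in the same order, so that Hpgds stayed lowest at a much higher percentile. A window with more peaks has more chances of a high one, and the windows held between 1 and 30 peaks per list, so this order is a description and was not tested.

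Summits were also placed against the peaks of the other mark. In Alox5, 23 of 30 and 19 of 23 H3K4me1 summits lay inside an H3K27ac peak of some list, beside 26.9% and 26.7% of all H3K4me1 peaks. In Alox5ap the counts were 13 of 20 and 11 of 14, and in Ltc4s 12 of 24 and 9 of 27. In the other direction 12 of 27, 10 of 19 and 11 of 16 H3K27ac summits of Alox5 lay inside H3K4me1 peaks, beside 34.1%, 32.0% and 33.0% over the lists. For Ltc4s these counts were 9 of 14, 9 of 13 and 6 of 12, and for Alox5ap 7 of 20, 6 of 15 and 3 of 15. In Hpgds, with few peaks, 0 of 6, 2 of 6 and 1 of 1 H3K27ac summits lay inside H3K4me1 peaks. Of its H3K4me1 summits, 1 of 2 and 0 of 1 lay inside H3K27ac peaks. A densely covered window has more chances of such a summit, so these counts are descriptions.

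Replicate lists were compared in place and in fold. Among Alox5 peaks, 18 of 27, 17 of 19 and 15 of 16 of H3K27ac overlapped a peak in every other list of the mark, beside 56.5%, 68.5% and 75.7% of all peaks in those lists. For H3K4me1 of Alox5 the counts were 21 of 30 and 19 of 23, beside 65.0% and 73.8%. For H3K27ac of Alox5ap the counts were 9 of 20, 11 of 15 and 11 of 15, and of Ltc4s 10 of 14, 12 of 13 and 12 of 12. At Hpgds they were 1 of 6, 1 of 6 and 1 of 1 H3K27ac peaks, each in the same region. H3K4me1 counts were 14 of 20 and 14 of 14 for Alox5ap and 19 of 24 and 21 of 27 for Ltc4s. For Hpgds they were 1 of 2 and 1 of 1. The bases covered in a window overlapped between H3K27ac lists with mean Jaccard indices (shared over joined bases) of 0.792 for Alox5, 0.635 for Alox5ap, 0.808 for Ltc4s and 0.531 for Hpgds, and between the H3K4me1 lists of 0.556, 0.579, 0.547 and 0.376. Over the 28 H3K27ac consensus regions of the windows the folds of a pair of lists had Spearman correlations of 0.55, 0.57 and 0.85, where all 19670 such regions gave 0.53 to 0.55. Over the 49 H3K4me1 consensus regions the correlation was -0.08, and over all 42329 it was 0.23. These correlations run across regions that share their libraries and are descriptions. The order of H3K4me1 regions by fold within the windows thus differed between its lists.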

How the data were processed

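Chromatin was crosslinked, sonicated, immunoprecipitated and read by Ion Torrent sequencing, per the labels' protocols. The authors called peaks with MACS2 at a q limit of 0.001 for each immunoprecipitate against its own input, without pooling, per the file headers, which name version 2.1.1.20160309 for H3K27ac and 2.0.10.20130306 for H3K4me1. Per the submitters' processing notes, the build was mm9 and the caller MACS2 2.0.10.20130306. For the aligner, the name was not given in the sources used here. The signal of a peak is the deposited pileup of tags at its summit, scaled between libraries by the caller; undoing the scale gave whole tags within 0.05 for 100% of peaks. The fold is the deposited ratio of pileup to local background, each with a constant added. The −log10 q-value, like the −log10 p-value, is also the authors' own. No table gave counts per gene, so no count model was used. Input libraries entered only through the authors' calls.

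Peaks were joined where they overlapped or touched, marks were taken to overlap from 1 bp, and positions count from 1. The exact permutation test used the covered percent of the lists. Intervals of tags cover counting error only. The regions named were the regions with both marks (by range where not named singly), the 2 consensus regions per mark and window with the best mean percentile by fold, and the longest H3K27ac region; other regions named were chosen after their values were seen. The members and lists were chosen with earlier results of these data known. Both marks have replicates numbered 1 and 2, but the titles run through all 5 immunoprecipitates without repeating a number, so these were not treated as pairs. Other genes of the pathway and mast cell marker loci were not analysed here, since an annotation of mm9 was not used. Alternatives were stricter q limits, lists of equal size, other joining, overlap and window edges, each list left out, a replicate block and ranks by pileup or q. The code was tested on simulated data. The software was pandas 2.3.3, NumPy 2.4.6, SciPy 1.17.1 and Matplotlib 3.10.9 under Python 3.11.15.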

Additional observations from a re-analysis of the deposited data

Results flagged for a closer look

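The order of the marks was not alike in all windows. Covered percent, as H3K4me1 minus H3K27ac, was -18.1 points for Alox5, -5.76 for Alox5ap and -2.34 for Hpgds, with every H3K27ac list above every H3K4me1 list, and 1.74 for Ltc4s, with every H3K4me1 list above every H3K27ac list. That difference between windows was not tested. The sign for Ltc4s turns under 3 of the alternatives given under the processing.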

How the results depend on the processing

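The difference between marks in covered percent kept its sign under all 12 alternatives for Alox5 (-22.0 to -15.1 points), Alox5ap (-8.31 to -4.00) and Hpgds (-3.28 to -1.82). For Ltc4s it turned to -1.35 with a minus log10 q of at least 10 (p = 0.7, exact permutation test), to -4.52 with lists of equal size and to -3.97 with windows shortened by 10 kb; the cause was not tested. With 1 list left out it ranged from -18.8 to -17.1 for Alox5, -6.86 to -4.00 for Alox5ap, 1.11 to 2.26 for Ltc4s and -2.88 to -2.06 for Hpgds, and the smallest p was then at least 0.25. With a replicate block pairing numbers 1 and 2 it was -18.8, -6.86, 1.86 and -2.88, each at the smallest p of 0.5.

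The number of regions with both marks fell from 8 to 5 for Alox5, from 7 to 4 for Alox5ap and from 4 to 2 for Ltc4s with a minus log10 q of at least 10. Lists of equal size gave 3 for Alox5ap and 2 for Ltc4s. Joining across 1000 bp gave 2 for Alox5 and 1 for Hpgds. With 1 list left out the numbers were 8 to 9, 6 to 8, 4 to 6 and 0 to 1. Ranked by pileup, the mean percentile of the highest peak was 97.1 for Alox5 H3K4me1, 99.4 for Alox5ap H3K27ac, 95.2 for Hpgds H3K27ac and 82.9 for Hpgds H3K4me1, and by minus log10 q it was 97.3 for Hpgds H3K27ac. Lists differ in depth and marks in caller version, and the part of either in these counts was not tested.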
